A study of Mus musculus with 5 samples.

Results

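Alveolar macrophages of unsorted mouse lung were studied in 4 single-cell RNA sequencing libraries, 1 for each of air pnd7, hyperoxia pnd7, air pnd60 and hyperoxia pnd60 (pnd, postnatal day). All 4 groups were C57BL/6J mice that shared strain and genotype and differed in exposure and age. Hyperoxia (over 95% O2), or air for the controls, began before 12 h of age and lasted 3 days. Room air followed up to pnd7 or pnd60. How many mice gave cells to each unsorted library is not stated in the sources used here. The series also holds 1 library of cells from 3 pooled lungs of hyperoxia-exposed mice at pnd7, sorted for high C12FDG signal, a fluorescent substrate of beta-galactosidase, and it is compared with the unsorted cells at the end.

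A cell was counted as an alveolar macrophage when 3 or more of 8 genes (Chil3, Ear1, Ear2, Plet1, Krt79, Atp6v0d2, Abcg1 and Cidec) had at least 1 count, when C1qa, C1qb and C1qc together stayed under 1000 CPM (counts per 1000000 counts of the cell or summed cells), and when Sftpc took under 2% of its counts. The rule was applied to barcodes with more than 700 and fewer than 8000 detected genes and under 5% mitochondrial counts. It found 630 alveolar macrophages among 12707 filtered cells of the 4 unsorted libraries, 146 of 2308 in air pnd7, 75 of 1246 in hyperoxia pnd7, 198 of 4397 in air pnd60 and 211 of 4756 in hyperoxia pnd60. Together the members held 1471219 counts in air pnd7, 1036937 in hyperoxia pnd7, 1542471 in air pnd60 and 1693335 in hyperoxia pnd60. Since the 8 genes chose the cells, their levels are given as a description.

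Alveolar macrophages live on the air side of the alveolus, where they take up and break down surfactant lipid, clear inhaled particles and dying cells, and renew themselves by division. They arise mainly from fetal monocytes that enter the air spaces around birth, and their identity depends on GM-CSF from epithelial cells and on the nuclear receptor Pparg. Interstitial macrophages, which make the complement protein C1q, are a separate population of the lung tissue.

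Chil3 and Krt79 are the rule markers whose summed levels differed most between the ages, and Fabp1, which the rule did not use, stood farthest above the other cells in the library where it stood least above them. The 250 bases before the RefSeq start of each are therefore shown, read from RefSeq on GRCm38.p6, the assembly that mm10 names. Chil3 lies on the minus strand and its window is chr3:106167565-106167814, Krt79 lies on the minus strand with the window chr15:101940325-101940574, and Fabp1 lies on the plus strand with the window chr6:71199629-71199878. Capitals mark the letters of 3 motifs searched on both strands. The core bound by the macrophage factor PU.1 was searched as GAGGAA. The half-site of nuclear receptors was searched as AGGTCA, which reads backwards on the opposite strand as the complement TGACCT. The TATA box was searched as TATAAA. No 2 matches overlapped.
Chil3: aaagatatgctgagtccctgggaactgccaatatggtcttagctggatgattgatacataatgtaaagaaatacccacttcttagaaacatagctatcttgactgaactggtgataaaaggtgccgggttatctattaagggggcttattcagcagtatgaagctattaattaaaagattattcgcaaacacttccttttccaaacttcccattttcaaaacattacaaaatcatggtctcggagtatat
Krt79: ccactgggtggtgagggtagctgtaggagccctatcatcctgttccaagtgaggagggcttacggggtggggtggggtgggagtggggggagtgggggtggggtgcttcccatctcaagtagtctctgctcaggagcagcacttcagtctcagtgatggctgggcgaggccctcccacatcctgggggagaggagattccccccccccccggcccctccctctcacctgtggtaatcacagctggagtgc
Fabp1: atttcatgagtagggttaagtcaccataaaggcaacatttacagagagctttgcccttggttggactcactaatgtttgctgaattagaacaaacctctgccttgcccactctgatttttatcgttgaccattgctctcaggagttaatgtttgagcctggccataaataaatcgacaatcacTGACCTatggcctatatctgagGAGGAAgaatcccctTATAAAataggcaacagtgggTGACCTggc
The Fabp1 window held GAGGAA 40 to 45 bases before the start, TGACCT at 62 to 67 and again at 4 to 9 bases before it, and TATAAA at 25 to 30 bases before it. The Chil3 and Krt79 windows held none of these letters, which says nothing about the factors. Among 32851 RefSeq windows of the same length, 23.3% held the PU.1 core, 14% the half-site and 12.4% the TATA box on either strand. Of 23 genes looked for (the 8 rule markers and 15 leading genes named below) 19 had a window, and of their 24 windows 5 (20.8%), 6 (25%) and 3 (12.5%) held the PU.1 core, the half-site and the TATA box.

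Alveolar macrophages made up 6.33% of the filtered cells in air pnd7 (exact Clopper-Pearson 95% interval 5.37% to 7.40%) and 6.02% in hyperoxia pnd7 (4.76% to 7.49%). At pnd60 they made up 4.50% in air (3.91% to 5.16%) and 4.44% after hyperoxia (3.87% to 5.06%). The shares in air and hyperoxia lay within each other's intervals at both ages, and both pnd7 shares were above both pnd60 shares. That order between the ages turned with other choices: with 6 or more markers the shares were 3.25% and 3.29% at pnd7 and 4.12% and 4.04% at pnd60. Thinned to 1000 counts per cell they were 3.56% and 4.10% at pnd7 and 4.15% and 4.25% at pnd60. All intervals given for shares, levels and ratios cover counting error only, and with 1 library per condition no difference has a replicate check and none was tested.

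Depth differed between the ages. The median alveolar macrophage had 10301.5 counts in air pnd7 (quartiles 2690.25 and 14346.5) and 12908 in hyperoxia pnd7 (3741 and 21150.5), against 7493 in air pnd60 (5620.25 and 9476.5) and 7918 in hyperoxia pnd60 (5193.5 and 10287). Depth at pnd7 was thus higher at the median and spread more widely, so the chance of seeing 1 count of a marker was not the same in every library.

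**Figure D1:**
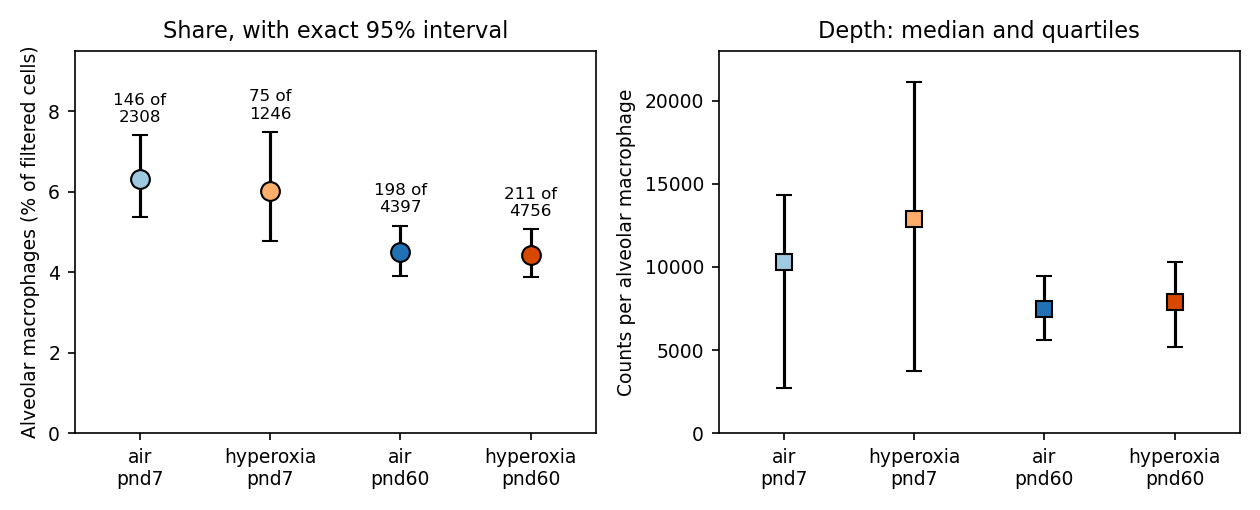
Left, alveolar macrophages as percent of filtered cells in each unsorted library with exact 95% intervals and cell numbers; right, counts per alveolar macrophage as median and quartiles. The shares lie at 6.33% and 6.02% at pnd7 and at 4.50% and 4.44% at pnd60, with air and hyperoxia intervals overlapping at each age, and the pnd7 quartiles span more counts than the pnd60 ones.

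The label was checked on 9 alveolar macrophage genes that the rule did not use (Marco, Fabp4, Fabp5, Siglecf, Lpl, Mrc1, Car4, Pparg and Itgax). At least 3 of the 9 were detected in 82.2% of members in air pnd7, 92% in hyperoxia pnd7, 91.9% in air pnd60 and 93.4% in hyperoxia pnd60. Members in which genes of mesenchymal, endothelial, neutrophil, lymphocyte, airway or type II cells took 0.5% or more of the counts numbered 58 of 146 (39.7%) in air pnd7, against 8 (10.7%) in hyperoxia pnd7, 5 (2.53%) in air pnd60 and 10 (4.74%) in hyperoxia pnd60. The air pnd7 library therefore stood apart in RNA of other cells. Cells that passed both checks are called checked members below, and they numbered 87, 65, 180 and 190 in air pnd7, hyperoxia pnd7, air pnd60 and hyperoxia pnd60. Because they were chosen by low counts of other-cell genes, their values for such genes are set by that choice and are no test.

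At the threshold of the rule, Lpl, the lipase that releases fatty acids from lipoproteins, was higher in cells with 3 markers than in cells with 2 in each unsorted library, by least in hyperoxia pnd60. In air pnd7 it stood at 167 CPM in the 87 cells with 2 markers and at 1047 CPM in the 35 with 3. In hyperoxia pnd7 it stood at 82.5 CPM in 47 cells with 2 markers and 1674 CPM in 8 cells with 3. In air pnd60 the values were 73.9 CPM in 88 cells and 239 CPM in 15, and in hyperoxia pnd60 they were 74.4 CPM in 142 cells and 92.2 CPM in 11. Marco, a scavenger receptor of these cells, had 0 counts in the pnd60 cells with exactly 3 markers, so these 15 and 11 members go against the label. Most pnd60 members were far from the threshold, since all 8 markers were detected in 144 of 198 and 145 of 211 cells, against 15 of 146 and 6 of 75 at pnd7.

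The limit on Sftpc removed 52 cells in air pnd7 and 33 in hyperoxia pnd7 that had 3 or more markers, against 6 in air pnd60 and 3 in hyperoxia pnd60. Without that limit the shares at pnd7 would be 8.58% and 8.67%. The limit on C1q removed 1 cell in air pnd7 and 1 in air pnd60. Between pairs of unsorted libraries 5 to 7 barcodes were shared, none of them by members, and none were shared with the sorted library. Doublets were called with Scrublet, which marked 0.0433% and 0.321% of cells in air pnd7 and hyperoxia pnd7. Whether doublets were few at pnd7 or were missed was not tested, so they are not controlled there. Scrublet marked 3.14% and 3.28% at pnd60, including 14 members in air and 14 after hyperoxia.

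Among the rule markers, Chil3, which encodes the secreted chitinase-like protein Ym1, varied most between libraries. Its summed level was 261 CPM in air pnd7 (exact Poisson interval 236 to 288), 823 CPM in hyperoxia pnd7 (768 to 879.7), 7528 CPM in air pnd60 (7392 to 7666) and 10578 CPM in hyperoxia pnd60 (10424 to 10734). The median cell had 0 Chil3 counts in both pnd7 libraries, and the upper quartile was 359 CPM in air pnd7 and 180 CPM in hyperoxia pnd7. At pnd60 the median cell had 7197 CPM in air and 10000 CPM after hyperoxia. Thinned to 2000 counts, 26.4% of 125 cells in air pnd7 and 23.1% of 65 in hyperoxia pnd7 had a Chil3 count, against 96.9% of 195 in air pnd60 and 98.5% of 202 in hyperoxia pnd60. Unthinned, these shares were 44.5%, 30.7%, 99.0% and 100% of members, beside 0.352%, 0%, 1.60% and 2.57% of lymphocytes (cells with 2 or more of 6 T and B cell genes), which should lack the gene and had medians of 4805, 5718, 1716 and 1842.5 counts.

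Krt79, a keratin known as a marker of mature alveolar macrophages in mice, stood at 79.5 CPM in air pnd7, 20.3 CPM in hyperoxia pnd7, 763 CPM in air pnd60 and 615 CPM in hyperoxia pnd60. Cidec, a lipid droplet protein, stood at 149.5 CPM, 105 CPM, 469 CPM and 407 CPM in the same order of libraries. Both genes, like Chil3, were higher at pnd60 than at pnd7 in air and after hyperoxia. The ribonucleases Ear1 and Ear2, whose close sequence means that reads may be split between them, were also higher at pnd60. Ear1 stood at 469.7 CPM, 499 CPM, 944 CPM and 976 CPM, and Ear2 at 949.6 CPM, 1370.4 CPM, 1641 CPM and 2098 CPM. Abcg1, an exporter of cholesterol, stood at 1209 CPM in air pnd7, 1508 CPM in hyperoxia pnd7, 2142 CPM in air pnd60 and 2176 CPM in hyperoxia pnd60. Plet1, a surface protein, ranged from 1235 CPM to 1669 CPM over the 4 libraries, and Atp6v0d2, a subunit of the proton pump of lysosomes, from 658 CPM to 721 CPM. These last markers varied least, and Atp6v0d2 hardly varied at all.

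**Figure D2:**
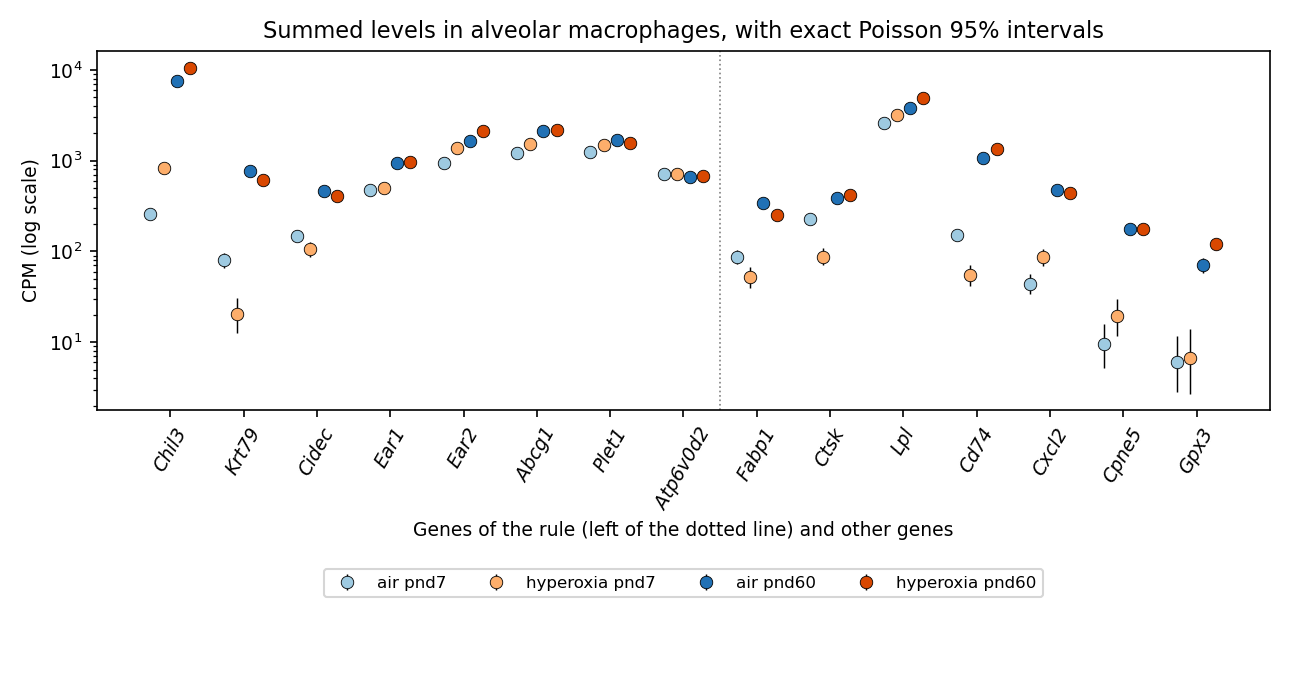
Summed levels of 15 genes in the alveolar macrophages of each unsorted library, in CPM on a log scale, with exact Poisson 95% intervals; the 8 genes of the rule stand left of the dotted line. The pnd60 points of Chil3 (7528 and 10578 CPM) lie far above the pnd7 points (261 and 823 CPM), while those of Atp6v0d2 stay between 658 and 721 CPM.

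Outside the rule, the 15 genes that stood highest above all other filtered cells of the same library, taken at their lowest ratio over the 4 libraries, were Fabp1, Vstm2a, Slc9a4, Mcoln3, Olr1, Trim29, Gal, Acaa1b, Chd5, Il1rn, Gpnmb, Gm41485, Htr2c, Rufy4 and F7. Their lowest log2 ratios lay between 5.64 for F7, coagulation factor VII, and 6.45 for Fabp1, a carrier of fatty acids. Cells chosen by markers must differ from the rest, so these ratios describe the cells and test nothing. Olr1, the receptor for oxidized lipoproteins, stood at 368 CPM in air pnd7, 429 CPM in hyperoxia pnd7, 365 CPM in air pnd60 and 398 CPM in hyperoxia pnd60. Il1rn, the secreted blocker of the interleukin-1 receptor, stood at 305 CPM, 391 CPM, 224 CPM and 286 CPM. Neither gene differed by 2-fold between any of the 4 libraries.

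C1q macrophages, defined by 2 or more C1q genes detected, C1q at or above 1000 CPM and under 3 rule markers, numbered 28, 20, 71 and 59 in air pnd7, hyperoxia pnd7, air pnd60 and hyperoxia pnd60, and gave the nearest comparison. In them Olr1 had 0, 0, 3.62 and 0 CPM, and Chil3 4, 0, 25.3 and 12.0 CPM. Apoe, a lipoprotein component, went the other way, with 290.2 CPM, 165 CPM, 172 CPM and 133 CPM in alveolar macrophages and between 14022 and 19208 CPM in C1q macrophages. The mannose receptor Mrc1 was shared by both, at 769 CPM, 798 CPM, 983 CPM and 1012 CPM in alveolar macrophages and between 1206 and 1792 CPM in C1q macrophages. Olr1, Apoe and Mrc1 were used by neither definition, while Chil3 was part of both.

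The comparison of pnd60 with pnd7 addressed how these cells differ between the growing and the adult lung. In air, 220 of 5147 genes with at least 100 counts over both libraries were at least 2-fold higher at pnd60 (4.27%) and 155 at least 2-fold lower (3.01%), which makes 7.29% in either direction. After hyperoxia, 243 of 4781 were higher (5.08%) and 165 lower (3.45%), which makes 8.53% in either direction. The median of all tested genes stood at 0.14 on the log2 scale in air and at 0.12 after hyperoxia, and the ratios below are to be read against these shifts. Scaled instead by the median of ratios between libraries, the split turned to 148 higher and 227 lower in air and to 164 higher and 229 lower after hyperoxia. Among checked members 181 of the 220 and 121 of the 155 genes stayed past 2-fold in air, and 215 of the 243 and 153 of the 165 after hyperoxia.

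Of the 8 rule markers, 4 were at least 2-fold higher at pnd60 in air (Chil3, Krt79, Cidec and Ear1) and 3 after hyperoxia (Chil3, Krt79 and Cidec), beside 4.27% and 5.08% of all genes, and none was 2-fold lower. The log2 ratio of Chil3 was 4.85 in air (binomial interval 4.70 to 5) and 3.68 after hyperoxia (3.59 to 3.79). For Krt79 it was 3.26 (2.99 to 3.55) and 4.93 (4.31 to 5.62), and for Cidec 1.65 (1.43 to 1.87) and 1.95 (1.66 to 2.26). The ratio of Ear1 was 1.01 (0.88 to 1.14) in air, or 0.75 with 6 or more markers, and 0.97 (0.83 to 1.11) after hyperoxia. These genes helped to choose the cells, so their ratios are a description.

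Of 21 further alveolar macrophage identity genes 19 could be read, and 1 was at least 2-fold higher at pnd60 in air (Fabp1) and 5 after hyperoxia (Fabp1, Fabp4, Siglecf, Ctsk and F7), with medians of 0.43 and 0.33 and none 2-fold lower. Fabp1 stood at 86.3 CPM in air pnd7, 52.1 CPM in hyperoxia pnd7, 345 CPM in air pnd60 and 251 CPM in hyperoxia pnd60, which gave log2 ratios of 2.00 (1.72 to 2.29) and 2.27 (1.86 to 2.71). Ctsk, a cysteine protease of the lysosome, stood at 229.7 CPM, 87.8 CPM, 386 CPM and 423 CPM, with log2 ratios of 0.75 (0.56 to 0.95) in air and 2.27 (1.95 to 2.60) after hyperoxia. Lpl was 0.57 higher on the log2 scale in air and 0.59 higher after hyperoxia, short of 2-fold. Among the 15 leading genes, Slc9a4, a sodium-proton exchanger, had 2.27 and 2.70, and Gal, the precursor of the peptide galanin, 1.86 and 3.09. Of the 19 identity genes 4 had ratios below 0 in air and 6 after hyperoxia, and the 1 gene past 2-fold in air is a share near the 4.27% of all genes, while the 5 after hyperoxia stand beside 5.08%.

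The 13 readable genes of the lineage factor list, of 17 that include the enzyme Car4 beside transcription factors, had medians of 0.43 in air and 0.27 after hyperoxia between the ages. None was past 2-fold, beside 7.29% and 8.53% of all genes, and over 13 genes nothing is read from this. Pparg stood at 114 CPM in air pnd7, 139 CPM in hyperoxia pnd7, 154 CPM in air pnd60 and 153 CPM in hyperoxia pnd60. Spi1, which encodes PU.1, stood at 515 CPM, 538 CPM, 499 CPM and 535 CPM. Cebpb, a factor of myeloid cells, stood at 1601 CPM, 1713 CPM, 2227 CPM and 2062 CPM. Nr1h3, the cholesterol-sensing receptor LXR-alpha, was counted with lipid genes and had a log2 ratio of 1.21 in air (0.68 to 1.77), at 28.5 CPM and 66.1 CPM.

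Tlr2, a receptor for bacterial lipoproteins, stood at 214 CPM in air pnd7, 194 CPM in hyperoxia pnd7, 467 CPM in air pnd60 and 539 CPM in hyperoxia pnd60, with log2 ratios of 1.13 (0.93 to 1.32) in air and 1.48 (1.25 to 1.70) after hyperoxia. Of 13 complement and Fc receptor genes 8 were readable, and C5ar1, Fcgr2b and Fcgr4 were 2-fold higher and C3, a complement protein, 2-fold lower in air, beside 4.27% and 3.01% of all genes. After hyperoxia Fcgr2b was the 1 gene 2-fold higher, beside 5.08% of all genes, and none was lower. Fcgr2b, the inhibitory receptor for IgG, had log2 ratios of 1.13 (0.71 to 1.56) and 1.30 (0.82 to 1.81). Mertk, a receptor for dying cells, stood at 281 CPM, 253 CPM, 537 CPM and 519.7 CPM, with ratios of 0.93 (0.76 to 1.11) and 1.04 (0.84 to 1.24), the latter 0.86 with 6 or more markers. Of 17 scavenger and efferocytosis genes, 10 were readable in air with none higher and Mfge8 lower, beside 3.01% of all genes lower, and 12 after hyperoxia with Mertk higher and Msr1 lower, beside 5.08% and 3.45%. Msr1, a scavenger receptor for modified lipoproteins, stood at 78.1 CPM in hyperoxia pnd7 and 25.4 CPM in hyperoxia pnd60, a ratio of -1.62 (-2.19 to -1.07). Mfge8, a bridge between dying cells and phagocytes, had -1.56 (-2.20 to -0.95) in air.

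Among cytokines and chemokines, 10 of 23 listed genes were readable in air and 9 after hyperoxia, with 1 higher and 1 lower in each, beside 4.27% and 3.01% of all genes in air and 5.08% and 3.45% after hyperoxia. Cxcl2 was the gene at least 2-fold higher at pnd60 in both, while Il1b was lower in air at -1.77 (-2.35 to -1.22) and Ccl9, a chemokine of myeloid cells, lower after hyperoxia at -1.90 (-2.34 to -1.48). A large part of the Il1b counts in air pnd7 lay in 1 cell, whose share is given with the pnd7 comparison below. Cxcl2, which attracts neutrophils, stood at 44.2 CPM in air pnd7, 86.8 CPM in hyperoxia pnd7, 470.0 CPM in air pnd60 and 442 CPM in hyperoxia pnd60, with log2 ratios of 3.41 (3.04 to 3.80) and 2.35 (2.03 to 2.68). In C1q macrophages Cxcl2 stood between 710 and 1137 CPM at both ages. Of 10 readable immediate early genes, which respond to tissue handling, 2 were 2-fold higher in air (Egr1 and Dusp1), beside 4.27% of all genes, and 5 after hyperoxia (Egr1, Dusp1, Fosb, Ier2 and Zfp36), beside 5.08%, with medians of 0.79 and 1. Egr1, a transcription factor induced within minutes of stimulation, stood at 78.8 CPM, 25.1 CPM, 283 CPM and 248 CPM. The part of handling in the age difference of Cxcl2 was not tested.

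Cd74, the invariant chain of MHC class II, stood at 152 CPM in air pnd7, 55 CPM in hyperoxia pnd7, 1056 CPM in air pnd60 and 1332 CPM in hyperoxia pnd60. The log2 ratio of pnd60 to pnd7 was 2.79 in air (2.59 to 3.00) and 4.6 after hyperoxia (4.22 to 5). Lymphocytes, in which Cd74 is abundant in B cells, also had more of it at pnd60, with 2915 CPM, 3241 CPM, 9070 CPM and 9700 CPM in the same order, and C1q macrophages had 988 CPM, 1359 CPM, 22571 CPM and 22696 CPM. The spread among alveolar macrophages was wide, from a median cell of 160 CPM to a highest cell of 51845 CPM in air pnd60. Whether free RNA of other cells took part in the Cd74 difference was not tested. H2-Aa, H2-Ab1 and H2-Eb1, the chains of MHC class II, had at most 1 count in any unsorted library, and each has 3 further features with the same name and a suffix, so their level cannot be read here.

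Cpne5, a calcium-binding copine, had 14 counts in air pnd7, 20 in hyperoxia pnd7, 272 in air pnd60 and 299 in hyperoxia pnd60, or 9.52 CPM, 19.3 CPM, 176 CPM and 177 CPM. Its log2 ratios were 4.21 (3.44 to 5.10) and 3.19 (2.54 to 3.93). Gpx3, a secreted glutathione peroxidase, stood at 6.12 CPM, 6.75 CPM, 70.7 CPM and 120.5 CPM, with ratios of 3.53 (2.55 to 4.70) and 4.16 (3.09 to 5.49). In lymphocytes Gpx3 stood at 1.12 CPM, 10.1 CPM, 241 CPM and 211 CPM, which at pnd60 was above the level in alveolar macrophages. Cpne5 was among the 5 highest ratios in air and Gpx3 as well, while Inmt, a methyltransferase of fibroblasts, was highest in air at 5.70 (3.81 to 8.76), from 2 counts at pnd7. After hyperoxia the highest ratios were those of Mgp at 7.71 (5.23 to 13.02), Inmt and Plac8 at 5.85 (4.29 to 8.14). Mgp, a matrix protein of fibroblasts, rested on 1 count at pnd7, Plac8, a gene of monocytes and lymphocytes, on 3, and Inmt had none, which gives at least 6.26 on the log2 scale from a floor of 3 counts. In lymphocytes of pnd60 Mgp stood at 303 CPM and 381 CPM and Inmt at 292 CPM and 324 CPM, above their levels in alveolar macrophages of the same libraries.

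Of 16 readable cell cycle genes 4 were at least 2-fold lower at pnd60 in air (Ccna2, Birc5, Ube2c and Stmn1), beside 3.01% of all genes, and 13 after hyperoxia, beside 3.45%, with medians of -0.73 and -1.77. In air Birc5 was near the limit at -1.01. It had -0.91 with doublets removed, -0.40 by the mean CPM per cell and 0.45 thinned to 1000 counts. Mki67, the gene of the Ki67 antigen, stood at 221 CPM in air pnd7, 261 CPM in hyperoxia pnd7, 126 CPM in air pnd60 and 45.5 CPM in hyperoxia pnd60. Its log2 ratio was -0.81 in air (-1.07 to -0.54) and -2.52 after hyperoxia (-2.91 to -2.15). Stmn1, which destabilizes microtubules, stood at 498 CPM, 581 CPM, 231 CPM and 126 CPM. H1f5, a linker histone, had -2.59 (-3.30 to -1.94) and -4.97 (-6.21 to -3.96), one of the 5 lowest after hyperoxia together with the histone H2ac8 at -4.28 (-5.45 to -3.30). Adamdec1, a secreted metalloprotease, had 113 counts in hyperoxia pnd7, in 10 cells, and 0 at pnd60, a log2 ratio of at most -5.94 from a floor of 3 counts. In members with 6 or more markers that ratio was -1.13, so most of its counts lay in members with fewer markers. Psat1, an enzyme of serine synthesis, stood at 57.8 CPM in air pnd7 and 14.9 CPM in air pnd60, a ratio of -1.95 (-2.69 to -1.28).

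The remaining lowest ratios came from genes with counts in few cells. In air pnd7 Slurp1 had all its 130 counts in 1 cell, and Eln, which encodes elastin, had 58.9% of its counts in the same cell, which had 3 rule markers and neither Chil3 nor Marco. S100a9 and Stfa1, genes of neutrophils, had 97.3% and 96.7% of their counts in air pnd7 in 1 cell. Gm31872 had 53.1% of its counts there in 1 cell. In hyperoxia pnd7 Ndnf had 77.4% of its counts in 1 of 2 cells, and Scgb3a2, a secretoglobin of airway cells, stood at 564 CPM in 9 cells.

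**Figure D3:**
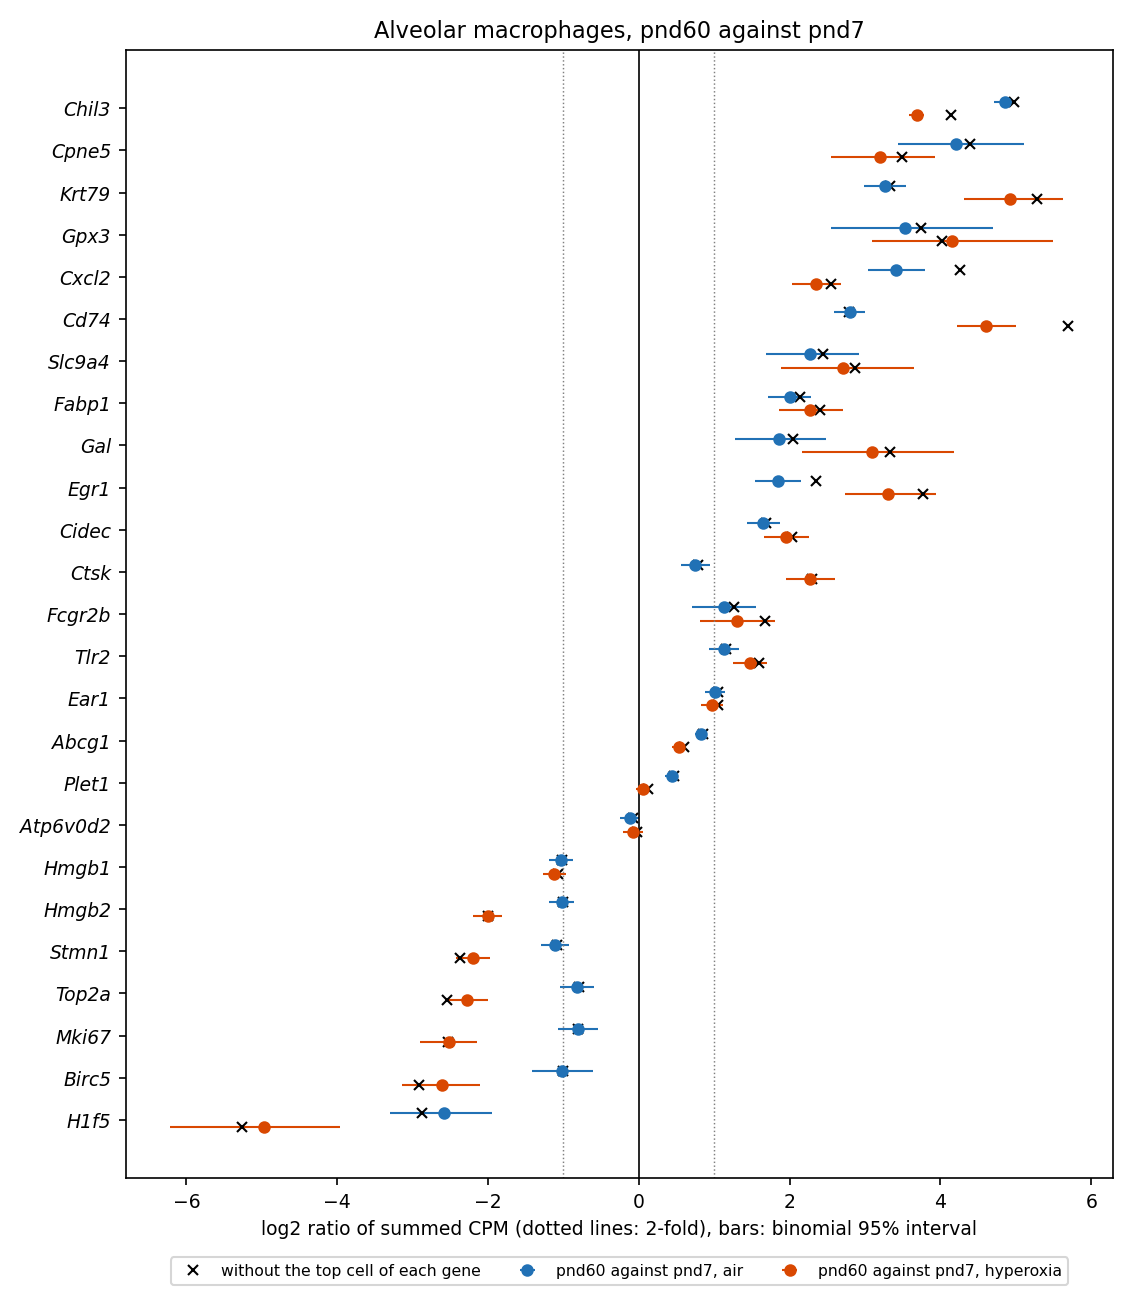
Log2 ratios of summed CPM, pnd60 over pnd7, for 25 genes in air (blue) and after hyperoxia (orange), with binomial 95% intervals; crosses leave out the cell with most counts of each gene. Chil3 lies at 4.85 and 3.68 and Krt79 at 3.26 and 4.93, Atp6v0d2 lies near 0, and the plotted cell cycle genes lie left of 0 in both comparisons, farther left after hyperoxia (Mki67 -0.81 and -2.52).

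The comparison of hyperoxia with air at pnd7 addressed what the early exposure left in these cells. Of 4370 genes with at least 100 counts, 11 were at least 2-fold higher (0.252%) and 46 at least 2-fold lower (1.05%), or 1.3% in either direction, with a median of 0.03. Among checked members 9 of the 11 and 16 of the 46 stayed past 2-fold, where the choice of cells itself lowers genes of other cells. The rule markers had 1 gene higher (Chil3) and 1 lower (Krt79), and of the 19 further identity genes Fabp4 and Ctsk were lower and none higher, with a median of -0.03.

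Chil3 had a log2 ratio of 1.66 (1.48 to 1.83) at pnd7, with 384 counts in 65 cells of air and 853 counts in 23 cells of hyperoxia. A single hyperoxia cell held 30.0% of the counts, and without the cell with most counts in each library the ratio was 1.30. A count was seen in 30.7% of hyperoxia and 44.5% of air members, and after thinning every cell to 2000 counts in 23.1% (13.5% to 35.2%) and 26.4% (18.9% to 35.0%), intervals that overlap. Krt79 had a ratio of -1.97 (-2.72 to -1.29) and -2.26 without its top cells. Ctsk had -1.39 (-1.74 to -1.05) and kept -1.40 without its top cells and -1.56 in checked members. For Fabp4, a fatty acid carrier, the ratio was -1.33 (-1.82 to -0.87), at 119 CPM in air and 47.3 CPM in hyperoxia, where 63.3% of the counts were in 1 cell, and it was -2.49 without the top cells. Cd63, a protein of lysosomes and endosomes, stood at 189 CPM and 92.6 CPM, a ratio of -1.03 (-1.38 to -0.69), which was -0.80 with 6 or more markers.

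Mmp12, macrophage metalloelastase, had the highest ratio at pnd7, 4.69 (3.60 to 6.03). It stood at 4.76 CPM in air (7 counts in 7 cells) and 122 CPM in hyperoxia (127 counts in 17 cells), and the cell with 40.2% of the hyperoxia counts had 3 rule markers and no Marco or Chil3. Leaving out the top cells gave 4.17 and checked members 5.28. At pnd60 Mmp12 was at 1.30 CPM in air and at 15.4 CPM after hyperoxia, where all 26 counts came from 1 cell. S100a4, a calcium-binding protein of motile cells, stood at 19.7 CPM in air pnd7 and 102 CPM in hyperoxia pnd7, a ratio of 2.37 (1.77 to 3.02). Its counts came from 13 cells in air and 16 in hyperoxia, and in members with 6 or more markers the ratio was 0.25.

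Hmox1, heme oxygenase and a target of Nrf2, stood at 69.3 CPM in air pnd7 and 441 CPM in hyperoxia pnd7, a ratio of 2.67 (2.36 to 2.99). A single hyperoxia cell held 376 of its 457 counts (82.3%), and without the top cells the ratio was 0.34. That cell had 7 rule markers, 6062 CPM of Chil3 and 35484 CPM of Fth1, the ferritin heavy chain. Of 17 readable antioxidant genes of 22 listed, Hmox1 was the 1 gene past 2-fold, beside 1.3% of all genes, and their median was -0.04.

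Cdkn1a, which encodes the cell cycle inhibitor p21, stood at 30.6 CPM in air pnd7 (45 counts in 29 cells) and 79.1 CPM in hyperoxia pnd7 (82 counts in 23 cells), a log2 ratio of 1.37 (0.83 to 1.93). Leaving out the top cells gave 1.32 and checked members 1.29, but thinning every cell to 1000 counts gave -0.62 from few counts. The further feature with its name, a copy with a suffix, had 0 counts in these members of both pnd7 libraries. Of 15 senescence genes 10 were readable, Cdkn1a was the 1 gene past 2-fold, and the median was 0.21. Of 12 p53 targets 6 were readable, with Cdkn1a again alone and a median of 0.42. Beside both counts stand 1.3% of all genes past 2-fold. Lmnb1, the lamin whose loss marks senescent cells, stood at 74.8 CPM and 99.3 CPM, and Gdf15, a stress-induced secreted factor, at 105 CPM and 63.6 CPM.

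Of 10 readable cytokine and chemokine genes Ccl3 was at least 2-fold higher and Il1b at least 2-fold lower in hyperoxia pnd7, beside 0.252% and 1.05% of all genes, with a median of 0.39. Ccl3, a chemokine for monocytes, stood at 48.9 CPM in air and 118 CPM in hyperoxia, a ratio of 1.27 (0.83 to 1.71). Il1b, interleukin-1 beta, stood at 79.5 CPM and 29.9 CPM, a ratio of -1.41 (-2.03 to -0.83), but 45.3% of its air counts were in 1 cell and without the top cells it had -0.91. Ccl6, the chemokine with most counts in these cells, stood at 4936 CPM and 6611 CPM. Of the M1 markers the study names, 4 of 8 were readable and Il1b was 2-fold lower, beside the same 1.05%. Of its M2 markers 3 of 6 were readable and none was past 2-fold between the exposures at either age, a share near the 1.3% and 0.664% of all genes. The study read both marker sets in macrophages of this series, so they are no independent evidence. Egr1 at -1.65 (-2.33 to -1.03) and Atf5, a factor of the integrated stress response, at -1.01 (-1.59 to -0.46) were lower as well. Atf5 had -0.90 with 6 or more markers.

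Genes of other cells filled the lowest ratios at pnd7. Col1a2, a chain of collagen I, stood at 230.4 CPM in air pnd7 (339 counts in 48 cells) and had 1 count in hyperoxia pnd7, a ratio of -7.90 (-13.21 to -5.41). Col1a1, the other chain, had -6.49 (-8.77 to -4.93), and S100a9 -5.90 (-7.78 to -4.53), which was -1.08 without its top cells. Slurp1 had -6.52 (-11.83 to -4.01) from 1 air cell, and Stfa1, with 0 counts in hyperoxia, had at most -5.41 from the same floor. Sftpc, the surfactant protein of type II cells, stood at 923 CPM in air and 243 CPM in hyperoxia, a ratio of -1.93, which was -0.49 with 6 or more markers. The rule itself keeps Sftpc under 2% of a cell's counts, and with no such limit the ratio was 0.042, so no difference is read from it. Summed over the lists, hemoglobin and other erythroid genes took 14817 CPM in air pnd7 and 5852 CPM in hyperoxia pnd7, and mesenchymal and endothelial genes 945 CPM and 179 CPM. The airway list took 2549.6 CPM and 2448 CPM, yet Scgb3a2 within it stood at 80.2 CPM and 564 CPM, a ratio of 2.81 (2.53 to 3.11) that was 0.29 with 6 or more markers. The part of RNA from other cells in these differences was not tested.

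**Figure D4:**
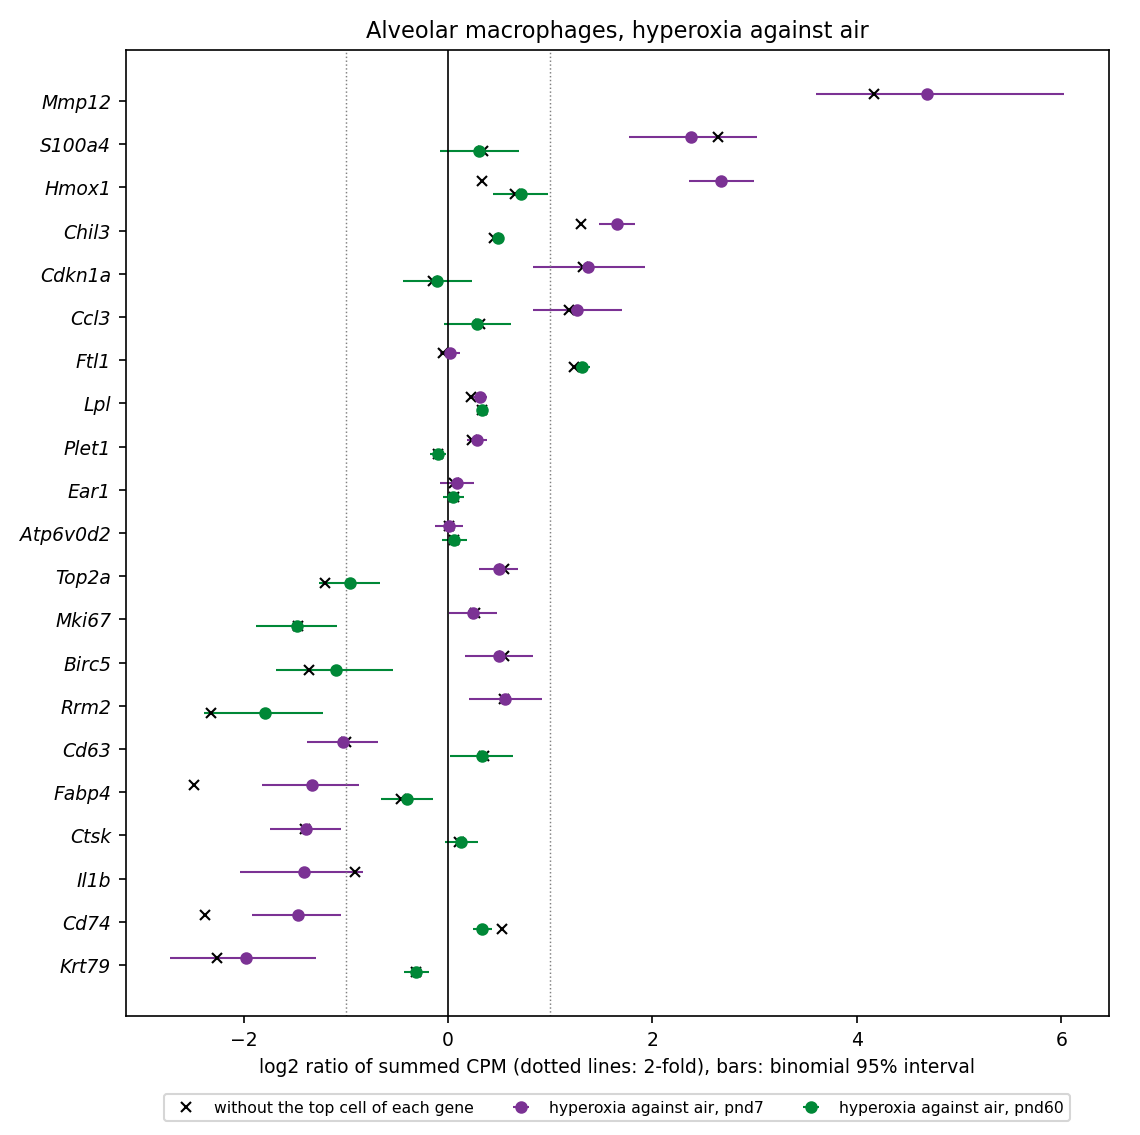
Log2 ratios of summed CPM, hyperoxia over air, for 21 genes at pnd7 (purple) and pnd60 (green), with binomial 95% intervals; crosses leave out the cell with most counts of each gene, and genes under 100 counts over both libraries have no point. Hmox1 moves from 2.67 to 0.34 without its top cell at pnd7, Ftl1 stands at 1.31 at pnd60, and Mki67, Birc5 and Rrm2 lie left of -1 at pnd60.

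At pnd60, long after the exposure, 13 of 5424 genes were at least 2-fold higher after hyperoxia (0.24%) and 23 at least 2-fold lower (0.424%), or 0.664% in either direction, with a median of 0.00. None of the 8 rule markers, the 19 readable identity genes or the 13 genes of the lineage factor list was among them, which is a share near that of all genes. Chil3 was 0.49 higher on the log2 scale (0.46 to 0.52) and Krt79 stood at -0.31 (-0.43 to -0.19). Lpl was 0.34 higher.

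Hbb-bs, a hemoglobin gene, was at least 2-fold lower after hyperoxia at pnd60, at 2092 CPM in air and 897 CPM after hyperoxia. The erythroid list as a whole took 4633 CPM and 2299 CPM, and the part of RNA from other cells in this was not tested. Ftl1, the ferritin light chain, also differed at a high level. It stood at 1391 CPM in air pnd7, 1413 CPM in hyperoxia pnd7, 1221 CPM in air pnd60 and 3034 CPM in hyperoxia pnd60, and the ratio at pnd60 was 1.31 (1.24 to 1.39). The median cell had 1090 CPM in air pnd60 and 2446 CPM in hyperoxia pnd60, so the difference was spread over the cells. Other classes of the same libraries moved as well: C1q macrophages had 709.8 CPM and 1822 CPM, a ratio of 1.36 (1.12 to 1.61), and lymphocytes 155 CPM and 321 CPM, a ratio of 1.05 (0.90 to 1.20). The difference was seen in all 3 classes. Fth1 stood at 9153 CPM and 9175 CPM. Ferritin genes have near-identical pseudogenes, so the counting of Ftl1 is uncertain, and with 1 library each the library and the exposure cannot be told apart.

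Of 14 readable cell cycle genes, Mki67, Birc5, Mcm5 and Rrm2 were at least 2-fold lower after hyperoxia at pnd60 and none higher, beside 0.424% of all genes lower. The median of the 14 was -0.57, beside 0.00 for all genes tested. Mki67 had a ratio of -1.48 (-1.88 to -1.09), or -0.92 by the mean CPM per cell. Birc5, survivin, had -1.10 (-1.68 to -0.54), Mcm5, a replication helicase subunit, -1.10 (-1.70 to -0.51), and Rrm2, a subunit of ribonucleotide reductase, -1.79 (-2.39 to -1.22). With 2 or more markers Birc5 had -0.53, and with cells thinned to 1000 counts Rrm2 had 0.085. Top2a, a topoisomerase of dividing cells, stood at 174 CPM in air and 89.2 CPM after hyperoxia, a ratio of -0.96 (-1.26 to -0.67). At pnd7 none of 16 readable genes was past 2-fold between the exposures, a share near the 1.3% of all genes, and the median was 0.35. Lymphocytes at pnd60 had a Mki67 ratio of -0.07 (-0.40 to 0.26). Whether the ratios of hyperoxia to air differ between the ages was not tested.

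The 5 highest ratios were Mfap4 at 1.98 (1.29 to 2.72), Mgp at 1.67 (1.34 to 2.01), Inmt at 1.65 (1.34 to 1.97), Bgn at 1.64 (1.03 to 2.29) and Npnt at 1.60 (1.17 to 2.04), which are genes of matrix or lung structural cells. With the called doublets removed they were 0.92, 0.55, 0.53, 0.39 and 0.26, so none of the 5 stayed past 2-fold. Lyz1, a lysozyme, stood at 16.2 CPM in air pnd60 and 44.3 CPM in hyperoxia pnd60, a ratio of 1.45 (0.78 to 2.17), and had 0.83 by the mean CPM per cell. The lowest ratios were Cyp2f2 at -2.81 (-3.62 to -2.09), Cyp2s1 at -2.15, Krt8 at -2.13, Cbr2 at -1.85 and Rrm2. With 2 or more markers Cyp2f2 turned to 0.085, Cyp2s1 to 0.31 and Cbr2 to 0.22. With no cell filter Cyp2f2 turned to 0.24 and Cbr2 to 0.28. Cyp2f2 and Cbr2 are genes of airway club cells, and Krt8, a keratin of epithelium, had 77.0% of its air pnd60 counts in 1 cell and a ratio of -0.15 with doublets removed. Cbr2 had -0.78 with doublets removed. Of the 13 higher genes all 13 stayed past 2-fold with 6 or more markers, 13 without the top cells and 11 by the mean CPM per cell. In checked members 3 of the 13 did, where the choice of cells itself lowers genes of other cells. Of the 23 lower genes 22 stayed past 2-fold with 6 or more markers, 20 without the top cells and 14 by the mean CPM per cell.

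At pnd60, 11 of 15 senescence genes, 7 of 12 p53 targets and 18 of 22 antioxidant genes were readable, with medians of -0.38, -0.07 and 0.01 between the exposures. None was past 2-fold, a share near the 0.664% of all genes. Cdkn1a stood at 96.6 CPM in air pnd60 and 89.8 CPM in hyperoxia pnd60, a ratio of -0.11 (-0.44 to 0.23). Against pnd7 it was 1.66 higher on the log2 scale in air (1.17 to 2.17) and 0.18 higher after hyperoxia (-0.21 to 0.59). Between the ages in air, 11 senescence genes were readable, with a median of 0.0010. Cdkn1a was the 1 gene higher at pnd60 and 2 were lower, beside 4.27% and 3.01% of all genes. After hyperoxia 10 were readable with a median of -0.18, and 3 were lower and none higher, beside 3.45% and 5.08%. Hmgb1 and Hmgb2, chromatin proteins that senescent cells lose, were at least 2-fold lower at pnd60 than at pnd7 in both exposures. Hmgb1 had -1.03 (-1.19 to -0.88) in air and -1.12 (-1.28 to -0.97) after hyperoxia, and Hmgb2 had -1.02 (-1.19 to -0.85) and -2 (-2.20 to -1.82). Lmnb1 was 2-fold lower at pnd60 after hyperoxia, at -1.72 (-2.24 to -1.22). Hmgb2 and Lmnb1 are also expressed with the cell cycle, and lymphocytes had 1408 CPM, 2093 CPM, 431 CPM and 361 CPM of Hmgb2 in air pnd7, hyperoxia pnd7, air pnd60 and hyperoxia pnd60.

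Alveolar macrophages with counts of 3 or more of 10 cell cycle genes were counted as cycling. They numbered 20 of 146 in air pnd7 (13.7%, 8.57% to 20.4%), 22 of 75 in hyperoxia pnd7 (29.3%, 19.4% to 41.0%), 23 of 198 in air pnd60 (11.6%, 7.51% to 16.9%) and 12 of 211 in hyperoxia pnd60 (5.69%, 2.97% to 9.72%). Cells of at least 5000 counts thinned to that depth gave 17 of 91 (18.7%), 14 of 54 (25.9%), 16 of 160 (10.0%) and 8 of 160 (5%), with 55, 21, 38 and 51 shallower cells left out. At equal depth the order of the libraries was the same, the intervals of the air and hyperoxia shares overlapped at each age, and cycling cells were found at pnd60 in both exposures. The cycling cells held 95.3% of the counts of these genes in air pnd7, 98.1% in hyperoxia pnd7, 95.5% in air pnd60 and 89.4% in hyperoxia pnd60. Because the same genes chose the cycling cells, a high share was set in large part by that choice, and it is given as a description. In C1q macrophages 8 of 28, 4 of 20, 2 of 71 and 0 of 59 cells were cycling, and in lymphocytes 13.4%, 16.1%, 0.894% and 0.898% of 284, 137, 1566 and 1670 cells. Lymphocytes of at least 5000 counts, thinned to that depth, gave 24 of 135 (17.8%), 17 of 81 (21.0%), 10 of 43 (23.3%) and 9 of 50 (18%). At pnd60 most lymphocytes were shallower than that, with 1523 and 1620 left out. C1q macrophages thinned alike gave 5 of 16, 1 of 14, 0 of 17 and 0 of 15.

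**Figure D5:**
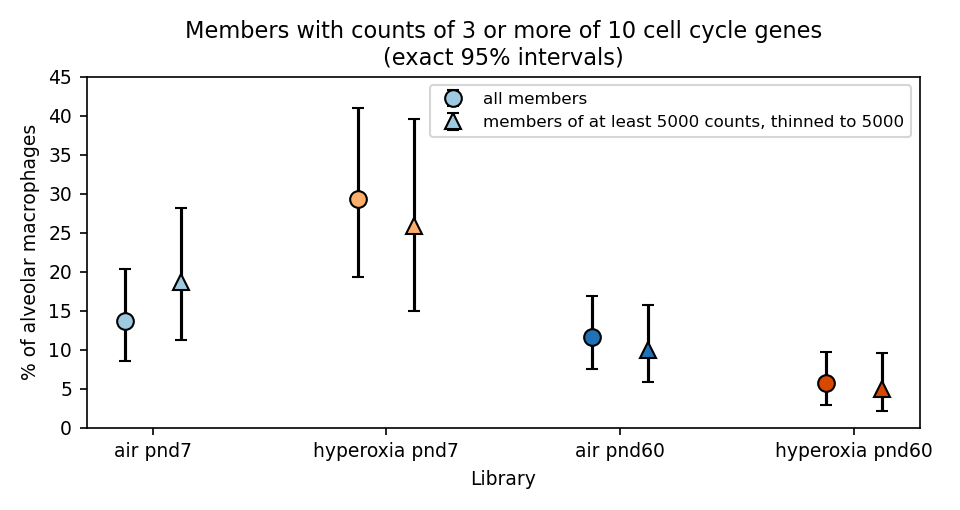
Percent of alveolar macrophages with counts of 3 or more of 10 cell cycle genes in each unsorted library, with exact 95% intervals; circles are all members and triangles members thinned to 5000 counts. Both ways give the highest share in hyperoxia pnd7 (29.3% and 25.9%) and the lowest in hyperoxia pnd60 (5.69% and 5%).

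The C12FDG-sorted library held 376 cells that met the same rule among 493 filtered cells (76.3%), with a median of 16338 counts. Against the 75 unsorted members of hyperoxia pnd7, 239 of 6657 genes were at least 2-fold higher in sorted cells (3.59%) and 901 at least 2-fold lower (13.5%), with a median of -0.29. Hmox1 stood at 7913 CPM in sorted and 441 CPM in unsorted cells, a ratio of 4.17 (4.03 to 4.30). As 82.3% of the unsorted Hmox1 counts were in 1 cell, the unsorted level was raised by that cell, and without it the ratio would be higher than 4.17. The interval of the ratio covers counting error only. The lowest sorted cell had 635 CPM against a median of 45.8 CPM in unsorted cells. Mt1, a metallothionein, stood at 16463 CPM and 1097 CPM, a ratio of 3.91 (3.82 to 3.99), and Gdf15 at 848 CPM and 63.6 CPM, a ratio of 3.74 (3.39 to 4.11). Cdkn1a, at 66.4 CPM and 79.1 CPM, had a ratio of -0.25 (-0.60 to 0.11). The unsorted alveolar macrophages of hyperoxia-exposed mice thus had lower Hmox1, Mt1 and Gdf15 and a Cdkn1a level within counting error of the sorted ones. Sorting, staining and the separate library cannot be told apart from the state of the cells.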

How the data were processed

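Lung cells were profiled by droplet single-cell RNA sequencing in 5 libraries, 4 unsorted and 1 sorted. The authors deposited counts of unique molecules per gene and cell for 42454 features, made with Cell Ranger on mm10 per the submitters' processing notes. The matrix headers name software 3.1.0, and the study's methods name Seurat 3.2.1. The gene annotation is not given in the sources used here. Barcodes with more than 700 and fewer than 8000 genes and under 5% mitochondrial counts (from 2 features) were kept and classed by the rule. Counts were summed over the members of each library and given as CPM with exact Poisson 95% intervals, shares with exact Clopper-Pearson intervals, and ratios of summed CPM on the log2 scale with binomial intervals.

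Each condition had 1 library, so no test was run, and a gene was called past 2-fold among genes with at least 100 counts over both libraries. A library at 0 was set to a floor of 3 counts. Genes that could be named, 216 in all, were the 8 rule markers, the 4 members with most counts and the members past 2-fold of each of 35 lists (375 genes), the 5 highest and 5 lowest ratios of each comparison, the M1, M2 and senescence genes the study names, and the 15 genes that stood highest above other cells. Only part of them are named in the text, chosen after their values were seen, and the others are given by the counts of their lists. The members and lists were chosen with earlier results of these data known. Of the list genes, 33 have further features of the same name with a suffix, and a level of 0 for these cannot be read. The computation was tested on simulated data. Intervals came from scipy 1.17.1 and doublet calls from scanpy 1.11.5, tables were handled in pandas 2.3.3 and numpy 2.4.6 under Python 3.11.15, and matplotlib 3.10.9 drew the figures. Alternatives to the cell filter, the limits of the rule, the count minimum, the fold and the depth were tried, 19 in all, of which 3 (6 or more markers, members checked on genes outside the rule, and leaving out the top cell of each gene) were chosen after seeing the data.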

Additional observations from a re-analysis of the deposited data

Results flagged for a closer look

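Genes whose ratio of hyperoxia to air passed 2-fold in opposite directions at pnd7 and pnd60 were looked at again, and the difference between the ages was not tested. Col1a2 had a log2 ratio of -7.90 at pnd7 and 1.32 at pnd60, which was -0.57 with doublets removed. Mfap4, a matrix protein, had -3.56 at pnd7 and 1.98 at pnd60, which was 0.92 with doublets removed. Fhl1, a LIM domain protein of muscle and mesenchyme, had -2.32 at pnd7 and 1.15 at pnd60. Bgn, the proteoglycan biglycan, had -2.92 at pnd7 and 1.64 at pnd60, which was 0.39 with doublets removed. These 4 genes are known from mesenchymal cells. The listed mesenchymal and endothelial genes took 945 CPM in air pnd7, 179 CPM in hyperoxia pnd7, 213 CPM in air pnd60 and 399 CPM in hyperoxia pnd60, and their part in the ratios was not tested. Gm33682 had 1.04 at pnd7 and -1.26 at pnd60, and 0.99 and -1.25 in checked members.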

How the results depend on the processing

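No paired analysis was possible because there was 1 library per condition. The share of alveolar macrophages in air pnd7 was 3.89% with no cell filter, 10.1% with 2 or more markers, 4.81% with 4 or more, 3.25% with 6 or more, 4.98% with Sftpc under 0.5%, 8.58% with no Sftpc limit, 3.77% in checked members and 3.56% after thinning to 1000 counts. In hyperoxia pnd7 it was 3.64% with no filter, 9.79% with 2 or more markers, 3.29% with 6 or more, 8.67% with no Sftpc limit and 4.10% thinned. With 2 or more markers it was 6.50% in air pnd60 and 7.42% in hyperoxia pnd60. Genes higher in hyperoxia at pnd7 (11) numbered 55 with 2 or more markers, 24 with no Sftpc limit, 2 thinned, 7 without top cells, 51 by mean CPM per cell, 30 at a minimum of 50 counts, 4 at 200, 2468 at none and 90 at 1.5-fold. Genes lower (46) numbered 17 with 6 or more markers, 15 in checked members, 2 thinned, 95 by mean CPM, and 119, 22, 1820 and 114 at those minimums and fold. At pnd60 genes higher (13) numbered 56 with 2 or more markers, 3 with doublets removed, 3 in checked members, 1 thinned, 7 without top cells, and 44, 4, 1665 and 75, and genes lower (23) 5 thinned and 79, 5, 2231 and 116. The minimum of 100 counts was applied again to the counts left in each choice of cells, thinned or without top cells. Genes therefore also left these numbers by falling under it. Without that second minimum, all 13 higher genes at pnd60 stayed past 2-fold without top cells. Between ages in air, higher (220) became 62 thinned, 401 by mean CPM, and 376, 120, 2532 and 863, and lower (155) 25 thinned and 300, 79, 2629 and 494. After hyperoxia, higher (243) became 405 with 2 or more markers, 36 thinned, 393 by mean CPM, and 421, 134, 1423 and 844, and lower (165) 21 thinned and 308, 82, 3051 and 521. Reversed log2 ratios of hyperoxia to air at pnd7 were -0.62 for Cdkn1a thinned, -0.074 for Scgb3a2 with no filter, 0.042 for Sftpc with no Sftpc limit, with 2 or more markers 0.0060 for Il1b, 1.63 for S100a9, 1.04 for Stfa1 and 0.0085 for Hbb-bs, and in checked members 0.71 for S100a9, 0.022 for Sftpc, 1.01 for Mfap4 and 0.29 for Fhl1. At pnd60 they were 0.085 for Rrm2 thinned, 0.24 for Cyp2f2 and 0.28 for Cbr2 with no filter, 0.085 for Cyp2f2, 0.31 for Cyp2s1 and 0.22 for Cbr2 with 2 or more markers, -0.57 for Col1a2 with doublets removed, and in checked members -0.21 for Bgn, -0.42 for Npnt, -0.82 for Col1a2 and -0.10 for Fhl1. Between ages they were 0.45 for Birc5 thinned and 0.35 (2 or more markers) and 0.77 (checked) for S100a9 in air, and 2.04 (6 or more markers) and 0.18 (checked) for Scgb3a2 after hyperoxia. Checked members were chosen by low counts of other-cell genes, so values of such genes in them are set by that choice. Several reversed values fell under the minimum of 100 counts, among them Cdkn1a, Rrm2 and Birc5 thinned and Col1a2 with doublets removed. No direction is read from those values. The cause of the other changes was not tested, and depth limits the genes under 100 counts.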
